A study of Mus musculus with 6 samples.

Results

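The epidermal differentiation complex is a block of genes for the proteins of the outermost layers of skin and other stratified epithelia, and its transcripts were followed here in mouse prostate tumors and normal prostate. The genes were taken by symbol: all small proline-rich (Sprr), late cornified envelope (Lce) and numbered S100a genes, together with Ivl, Lor, Flg, Flg2, Rptn, Hrnr, Tchh, Tchhl1, Crnn, Crct1, Cnfn, Tgm1 and Tgm3. This rule found 61 of the 24091 genes in the count table, 58 of them on chromosome 3, while Cnfn, Tgm1 and Tgm3 lie on chromosomes 7, 14 and 2. Flg was not analysed here. Of the 61 genes, 35 had enough counts for a test and 26 did not, with a highest count of 31 in any library.

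RNA was sequenced in 6 libraries that fall into 3 groups of 2. The 12Q group was prostate tumors of males with a humanised allele that encodes 12 glutamines in a polyglutamine tract, and the 48Q group was tumors of males whose tract at the same place has 48 glutamines. Both tumor genotypes also carried Ctnnb1(Ex3)L/wt, a conditional exon 3 on 1 allele of the β-catenin gene, and PBCre-4, a transgene that expresses Cre recombinase in prostate epithelium. β-catenin is the transcriptional effector of canonical Wnt signalling, and deletion of that exon takes away the residues by which it is marked for degradation. The WT libraries came from normal prostate of wild-type animals, so that tumor and WT libraries differ in both altered alleles and the transgene as well as in the presence of a tumor, and no tumor-free tissue with these alleles was among the groups. Ages are not given in the labels, and neither is whether the 2 libraries of a group came from different animals, and the spread that the p-values rest on may thus be technical.

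When keratinocytes of a stratified epithelium end their life they replace the plasma membrane by the cornified envelope, a sheet of protein joined by transglutaminases. Involucrin and loricrin are its scaffold and its main filler, the small proline-rich proteins act as cross-bridges, and the late cornified envelope proteins are added last. Fused-type S100 proteins, such as filaggrin, repetin, hornerin and trichohyalin, combine an S100 domain with long repeats and bind keratin, while the single S100 proteins are small calcium sensors of which many are also made outside the skin. The prostate is lined by a glandular epithelium, which does not cornify.

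Levels are given as CPM, a gene's counts relative to the library total after TMM scaling, which evens out a shift of most genes at once. Library totals ranged from 26416181 to 28559546 counts, and 3 counts corresponded to 0.0855 to 0.156 CPM. Differences were tested with edgeR's quasi-likelihood F test over 15050 genes at once, called at a Benjamini-Hochberg adjusted p under 0.05, and given as log2 fold changes with an approximate standard error (SE). For a gene at 0 counts in both WT libraries, the fold is written as a lower bound that puts 3 counts into each of them. For a gene with 1 to 3 counts in a whole group, a CPM ratio and its exact 95% interval are shown. These bounds and intervals cover counting error only. In RNA of whole tissue, fewer cells of a type and less RNA per cell cannot be told apart.

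Transcripts of most genes of the complex were scarce in WT prostate, with Sprr1a and several S100 genes as exceptions. Most genes were detected in both kinds of tumor, while 6 were at 0 counts in both 12Q libraries. Both WT libraries were at 0 counts for 39 of the 61 genes, and 47 had at most 5 counts in each, whereas 39 genes had a count in all 4 tumor libraries. In 12Q tumors 29 of the 35 tested genes were higher than in WT prostate and 0 were lower, against 11.2% of all tested genes called higher and 11.2% called lower (22.4% in either direction). In 48Q tumors 16 of 35 were higher and 0 lower, against 3.95% of all genes higher and 1.23% lower (5.18% in either direction). Of the called genes, 14 were called in both comparisons, 15 in 12Q tumors without passing in 48Q tumors, and Crnn and Hrnr in 48Q tumors without passing in 12Q tumors. Both comparisons share the WT libraries. Between the tumors, Cnfn, S100a6 and S100a10 were higher in 12Q and Hrnr was lower, while 31 genes did not pass, beside 1.01% of all genes called higher and 3.16% lower (4.17% in either direction).

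These counts are not a statement on all 61 genes, because a gene scarce in WT prostate entered the test only through counts in a tumor group. The median log2 fold change of the 35 genes was 6.12 in 12Q tumors and 6.13 in 48Q tumors against WT. Over all tested genes the medians were -0.01 and 0.02. With the 14 genes that have a lower bound placed at that bound, the median of the 35 genes was 4.64 and 3.13. Of the 15 tested genes at 0 counts in both WT libraries, the gene without a bound stayed at its fitted value. This was Sprr1b for 12Q, whose fitted 4.64 was itself the median, and Lce1g for 48Q. Among the 11 genes with enough counts in both WT libraries, 9 were higher in 12Q tumors and 4 in 48Q tumors than in WT prostate. The 48Q calls rest on each library of that comparison: without 48Q replicate 2 or without WT replicate 1 the count was 0, and without 48Q replicate 1 or without WT replicate 2 it was 3. The 4 calls between the tumors were lost when any 1 of the 12Q or 48Q libraries was left out, with 8 calls when either WT library was. In 12Q tumors against WT the count stayed between 19 and 25 when 1 library was left out, with the lowest value without WT replicate 2.

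**Figure D1:**
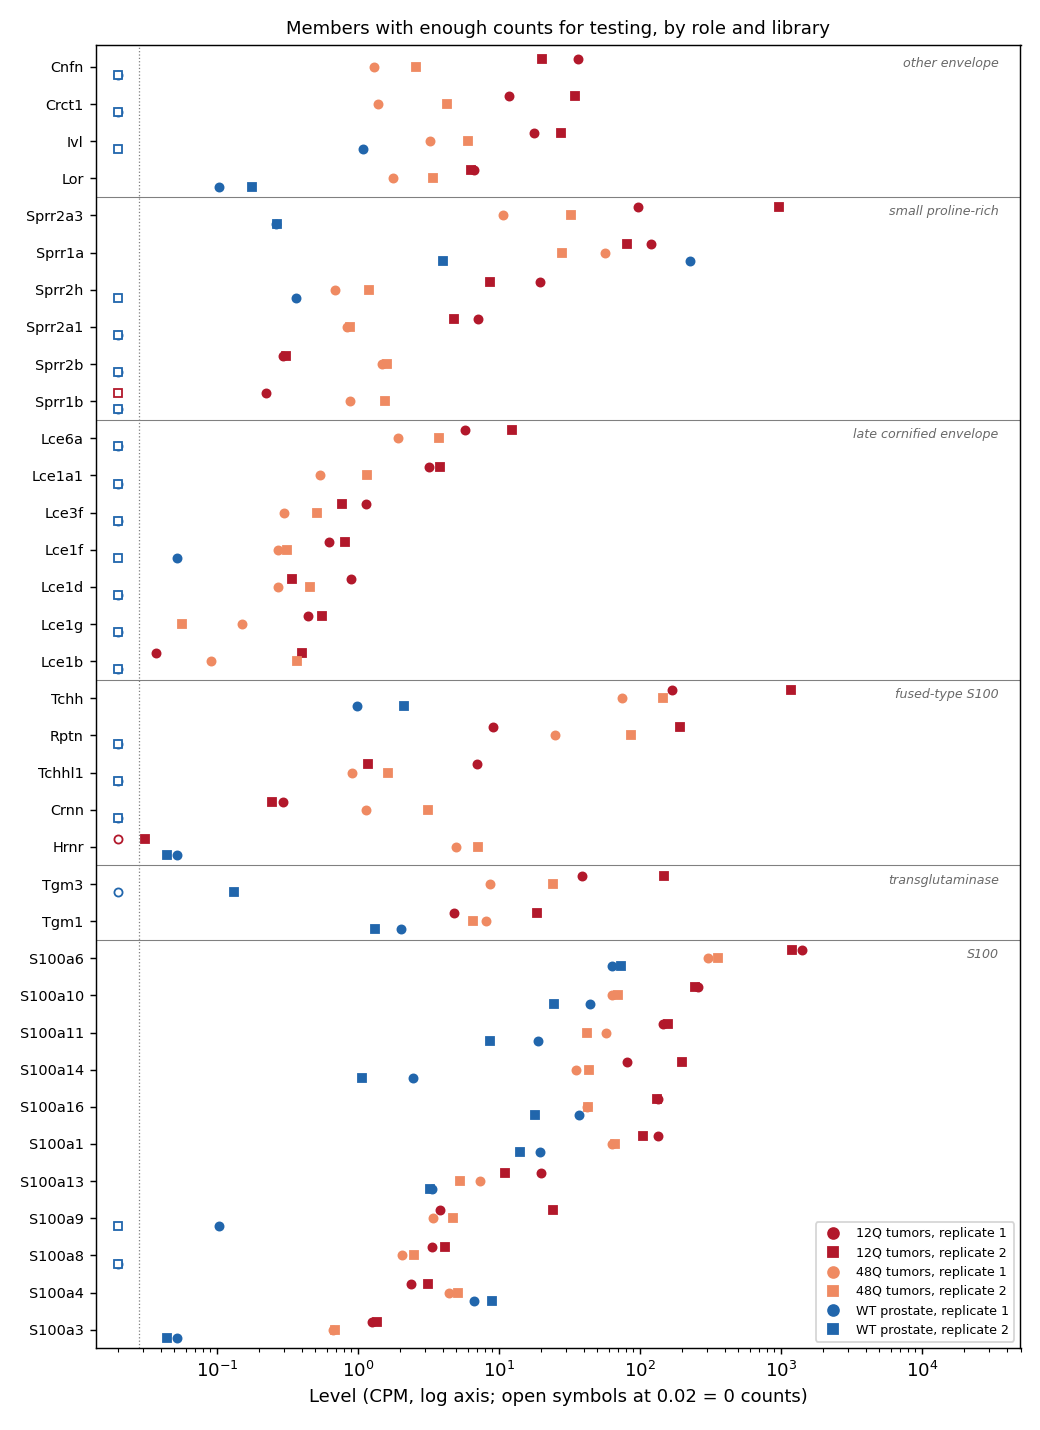
Level of each of the 35 tested genes in each library, in CPM on a log axis, grouped by role, with 12Q tumors in dark red, 48Q tumors in orange and WT prostate in blue (circles, replicate 1 and squares, replicate 2). Open symbols left of the dotted line are libraries at 0 counts. Most blue symbols are open or far to the left of the tumor symbols, except for Sprr1a, S100a4 and some other S100 genes.

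Lor, Ivl, Rptn and Tgm3 were higher in 12Q tumors than in WT prostate, and Hrnr was lower in 12Q than in 48Q tumors. The 12Q and 48Q levels of the Sprr2 genes Sprr2h and Sprr2b lay in opposite orders. Neither difference passed the test (edgeR adjusted p = 0.0844 for Sprr2h and 0.105 for Sprr2b). For this selection of genes, the 250 bases before the transcript start are shown, from RefSeq on GRCm38.p6 (mm10). Each is written 5′ to 3′ in the direction of transcription, and capitals mark matches to 4 motifs: TGANTCA, the AP-1 site; TATAAA, the TATA box; GGGTGTGG, the KLF site; and AACNGGTT, a grainyhead-like site. Positions are counted back from the base at the start, which is not itself in the window.
Lor, chr3:92083143-92083392, minus strand: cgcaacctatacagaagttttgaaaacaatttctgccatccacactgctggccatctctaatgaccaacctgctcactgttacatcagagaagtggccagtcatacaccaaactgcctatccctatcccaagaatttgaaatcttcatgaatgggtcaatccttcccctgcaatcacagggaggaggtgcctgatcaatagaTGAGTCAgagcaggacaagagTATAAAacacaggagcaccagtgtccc
Ivl, chr3:92573736-92573985, minus strand: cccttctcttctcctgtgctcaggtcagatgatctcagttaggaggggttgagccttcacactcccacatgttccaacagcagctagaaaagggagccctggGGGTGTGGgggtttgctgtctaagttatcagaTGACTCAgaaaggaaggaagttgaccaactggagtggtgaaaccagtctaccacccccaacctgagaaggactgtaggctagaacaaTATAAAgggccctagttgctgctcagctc
Rptn, chr3:93393449-93393698, plus strand: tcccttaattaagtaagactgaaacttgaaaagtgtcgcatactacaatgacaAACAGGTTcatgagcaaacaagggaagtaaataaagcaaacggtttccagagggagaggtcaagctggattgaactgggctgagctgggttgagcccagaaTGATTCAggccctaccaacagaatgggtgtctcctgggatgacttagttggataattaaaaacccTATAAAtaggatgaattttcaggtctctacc
Tgm3, chr2:130012090-130012339, plus strand: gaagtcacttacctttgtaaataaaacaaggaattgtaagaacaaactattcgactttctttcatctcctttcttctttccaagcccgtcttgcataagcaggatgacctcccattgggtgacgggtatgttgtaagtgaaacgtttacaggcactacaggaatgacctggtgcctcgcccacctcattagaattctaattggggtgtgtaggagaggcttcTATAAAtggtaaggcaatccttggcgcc
Hrnr, chr3:93319499-93319748, plus strand: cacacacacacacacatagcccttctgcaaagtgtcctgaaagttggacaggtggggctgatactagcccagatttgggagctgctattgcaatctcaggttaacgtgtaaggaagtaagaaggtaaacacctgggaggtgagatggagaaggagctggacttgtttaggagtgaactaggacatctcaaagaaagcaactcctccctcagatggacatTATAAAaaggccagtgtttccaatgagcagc
Sprr2h, chr3:92385435-92385684, plus strand: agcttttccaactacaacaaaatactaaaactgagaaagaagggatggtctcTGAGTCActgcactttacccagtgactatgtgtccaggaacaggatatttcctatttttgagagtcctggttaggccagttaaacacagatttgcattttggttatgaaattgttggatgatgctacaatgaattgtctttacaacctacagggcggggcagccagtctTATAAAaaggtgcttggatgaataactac
Sprr2b, chr3:92316455-92316704, plus strand: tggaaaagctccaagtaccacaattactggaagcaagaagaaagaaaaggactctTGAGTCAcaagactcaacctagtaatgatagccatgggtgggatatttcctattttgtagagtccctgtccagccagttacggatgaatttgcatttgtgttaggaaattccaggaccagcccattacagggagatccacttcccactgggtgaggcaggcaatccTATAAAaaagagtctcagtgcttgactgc

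A TATAAA lay at position -27 in Lor, -28 in Tgm3, -29 in Ivl, Sprr2h and Sprr2b, and -31 in Rptn and Hrnr. An AP-1 match was at -48 in Lor, -116 in Ivl, -96 in Rptn, -198 in Sprr2h and -195 in Sprr2b, and no TGANTCA was found in the windows of Tgm3 and Hrnr. The GGGTGTGG of Ivl was at -148 and the AACNGGTT of Rptn at -197.

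RefSeq windows were available for 54 of the 61 genes, and both strands were searched. TATAAA beginning 20 to 40 bases before the start was found in 19 of 54 (35.2%), against 2.5% of all 32851 promoter windows of that length. It was in 9 of 13 small proline-rich genes and 3 of 6 fused-type S100 genes, but in 2 of 20 late cornified envelope genes and 2 of 10 single S100 genes. TATAAA anywhere in the window was in 40.7% of the 54 and in 12.4% of all windows, and TGANTCA in 16 of 54 (29.6%) and 6.7%. CTTTGAT, the site of the TCF/LEF factors through which β-catenin acts, was in 3 of 54 (5.6%) and in 3.2% of all windows. AACNGGTT was in 3.7% and 1.8%, and GGGTGTGG in 3.7% and 3.2%. In the 54 windows 0 had matches to 2 motifs that overlapped. Many of these genes are copies of one another, so their windows are not independent, and a match is a run of letters rather than a site shown to be used.

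Of the scaffold and filler proteins, Lor, Ivl, Cnfn and Crct1, all 4 were higher in 12Q tumors than in WT prostate, 3 were higher in 48Q tumors, and 1 was higher in 12Q than in 48Q tumors. Cnfn encodes cornifelin, an envelope protein from outside the chromosome 3 block. It had 36.5 and 20.2 CPM in the 12Q tumors, 1.29 and 2.57 CPM in the 48Q tumors and 0 in both WT libraries. The 3 groups did not overlap. The level was at least 196-fold higher in 12Q tumors than in WT prostate (edgeR adjusted p = 0.00426) and at least 13.4-fold higher in 48Q tumors (edgeR adjusted p = 0.0272), and the log2 fold change of 12Q over 48Q was 3.87 (SE 0.577, edgeR adjusted p = 0.0365). Without 48Q replicate 2 the 48Q bound was 8.96, and without a single 12Q or 48Q library the adjusted p between the tumors was 0.0735 to 0.185.

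Crct1, a small cysteine-rich protein gene at the Crnn end of the late envelope genes, had 11.9 and 34.7 CPM in 12Q tumors, 1.38 and 4.31 CPM in 48Q tumors and 0 in both WT libraries. Its 3 groups were also separate. The bound was 161-fold for 12Q over WT (edgeR adjusted p = 0.00886) and 19.7-fold for 48Q over WT (edgeR adjusted p = 0.0451). These bounds were 240 and 82.2 for 12Q without its replicate 1 and its replicate 2, and 29.8 and 9.58 for 48Q.

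Lor, the loricrin gene, had 6.62 and 6.34 CPM in 12Q tumors, 1.78 and 3.42 CPM in 48Q tumors and 0.104 and 0.177 CPM in WT prostate. The 12Q libraries lay close together, those of the other groups less so, and the 3 groups did not overlap. The log2 fold change was 5.47 for 12Q over WT (SE 0.684, edgeR adjusted p = 0.00612) and 4.15 for 48Q over WT (SE 0.662, edgeR adjusted p = 0.0296), with WT levels that stand for 2 and 4 counts. Ivl, the involucrin gene, had 17.7 and 27.8 CPM in 12Q tumors, 3.25 and 6.02 CPM in 48Q tumors, and 1.1 and 0 CPM in WT prostate. Every tumor library was above both WT libraries, and 12Q above 48Q. The log2 fold change of 5.41 for 12Q over WT (SE 1.31, edgeR adjusted p = 0.0331) moved to 12.42 without WT replicate 1 and to 4.37 without WT replicate 2, and its adjusted p was 0.0595 and 0.092 without 12Q replicate 1 and replicate 2. In 48Q tumors Ivl did not pass (log2 fold change 3.11, SE 1.22, edgeR adjusted p = 0.181).

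Of the 15 small proline-rich genes, 6 were tested: 4 were higher in 12Q tumors than in WT prostate, 2 were higher in 48Q tumors, and 0 were called between the tumors. Sprr2a3, a cross-bridging protein of the Sprr2 family, had 96.7 and 970 CPM in 12Q tumors, 10.7 and 32.6 CPM in 48Q tumors and 0.261 and 0.265 CPM in WT prostate. The groups were in the order 12Q, 48Q, WT with no overlap, and the 12Q libraries lay far apart, with replicate 2 the higher. Per kilobase of exon its mean level of 627 CPM in 12Q tumors was second to S100a6 among the genes of the complex. The log2 fold change of 12Q over WT was 10.96 (SE 1.58, edgeR adjusted p = 0.00844), and it was 11.87 without 12Q replicate 1 and 8.50 without 12Q replicate 2. The adjusted p was 0.0555 without WT replicate 1 and 0.0547 without WT replicate 2. For 48Q over WT (6.34, SE 1.4, edgeR adjusted p = 0.0557) and 12Q over 48Q (4.62, SE 1.14, edgeR adjusted p = 0.0715) the gene did not pass. About 61.1% of the 50-base stretches of the Sprr2a3 exons also occur in Sprr2a1, so reads may have been divided between them.

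Sprr2a1 had 7.14 and 4.8 CPM in 12Q tumors, 0.843 and 0.884 CPM in 48Q tumors and 0 in WT prostate, at least 41.3-fold higher in 12Q (edgeR adjusted p = 0.00572) and at least 5.97-fold higher in 48Q than in WT (edgeR adjusted p = 0.0322). Its values are uncertain, since 96.3% of its exonic stretches are shared, mostly with the overlapping Sprr2a2. Sprr2h, whose exons share no such stretch with another gene, had 19.7 and 8.69 CPM in 12Q tumors, 0.692 and 1.20 CPM in 48Q tumors and 0.365 and 0 CPM in WT prostate. The 12Q libraries stood well above both other groups, which did not overlap either. Its log2 fold change was 6.31 for 12Q over WT (SE 1.24, edgeR adjusted p = 0.0186), 5.65 without 12Q replicate 1, 5.26 without WT replicate 2 and 11.74 without WT replicate 1, and 3.90 for 12Q over 48Q (SE 1.04, edgeR adjusted p = 0.0844). In 48Q against WT it did not pass (2.41, SE 1.15, edgeR adjusted p = 0.251).

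Sprr2b went the other way between the tumors, with 0.296 and 0.309 CPM in 12Q tumors, 1.47 and 1.60 CPM in 48Q tumors and 0 in WT prostate. Both tumor groups were above WT, at least 2.09-fold for 12Q (edgeR adjusted p = 0.0296) and at least 10.6-fold for 48Q (edgeR adjusted p = 0.0295). The log2 difference of 12Q over 48Q was -2.33 (SE 0.647, edgeR adjusted p = 0.105), which did not pass although the libraries were separate. Its 12Q call was lost when any 1 of the 6 libraries was left out, with adjusted p-values of 0.0555 to 0.103. Sprr1b had the same order, with 0.222 and 0 CPM in 12Q tumors, 0.873 and 1.57 CPM in 48Q tumors and 0 in WT prostate, and passed in no comparison (edgeR adjusted p = 0.259 for 12Q over WT, 0.0964 for 48Q over WT and 0.175 for 12Q over 48Q).

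Sprr1a, which is known as an early envelope precursor and as a gene induced by stress and injury in several tissues, was the exception in WT prostate. It had 119 and 80.6 CPM in 12Q tumors, 56.7 and 27.8 CPM in 48Q tumors, and 225 and 4.02 CPM in WT prostate, where it stood for 4324 and 91 counts. The higher WT library exceeded all tumor libraries and the lower one was below them all, a 56.1-fold spread. No difference passed (log2 fold change -0.20, SE 1.37, edgeR adjusted p = 0.932 for 12Q over WT and -1.44, SE 1.39, edgeR adjusted p = 0.557 for 48Q over WT). The 9 Sprr genes with too few counts were Sprr2d, Sprr2e, Sprr2f, Sprr2g, Sprr2i, Sprr2j-ps, Sprr2k, Sprr3 and Sprr4, which together held 107 counts in 12Q tumors, 46 in 48Q tumors and 1 in WT prostate. Sprr4 had 31 of its counts in 12Q replicate 2 and 0 in 12Q replicate 1.

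The late cornified envelope genes, last to be deposited under the envelope, were low wherever they were detected. Summed over the 21 genes, they came to 13.7 and 20.6 CPM in 12Q tumors, 5.36 and 9.52 CPM in 48Q tumors, and 0.0521 and 0 CPM in WT prostate, where 1 count of Lce1f was the total. Of the 7 tested, 6 were higher in 12Q and 2 in 48Q tumors than in WT prostate, and 0 differed between the tumors. Lce6a had 5.73 and 12.3 CPM in 12Q tumors, 1.93 and 3.76 CPM in 48Q tumors and 0 in WT prostate. It was at least 62.4-fold higher in 12Q (edgeR adjusted p = 0.00734) and at least 19.7-fold higher in 48Q than in WT (edgeR adjusted p = 0.0295), and the 12Q bound was 39.7 without 12Q replicate 2. Lce1a1 had 3.22 and 3.81 CPM in 12Q tumors, 0.542 and 1.17 CPM in 48Q tumors and 0 in WT prostate, at least 24.3-fold (edgeR adjusted p = 0.00902) and 5.92-fold (edgeR adjusted p = 0.0425) above WT. For both genes the tumor groups were separate from each other.

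Another 4 late envelope genes were called in 12Q tumors against WT, and 0 of these were called in 48Q tumors against WT or between the tumors. Lce3f had 1.15 and 0.774 CPM in 12Q tumors, 0.301 and 0.513 CPM in 48Q tumors and 0 in WT prostate (at least 6.64-fold for 12Q over WT, edgeR adjusted p = 0.0176). Lce1d had 0.888 and 0.34 CPM in 12Q, 0.271 and 0.456 CPM in 48Q and 0 in WT (at least 4.25-fold, edgeR adjusted p = 0.0326, with a bound of 2.35 without 12Q replicate 1). Lce1g had 0.444 and 0.557 CPM in 12Q, 0.151 and 0.057 CPM in 48Q and 0 in WT (at least 3.46-fold, edgeR adjusted p = 0.0318). These 3 genes rest on few reads, with 11 to 31 counts in each 12Q library. Lce1f had 0.629 and 0.804 CPM in 12Q tumors, 0.271 and 0.314 CPM in 48Q tumors and 0.0521 and 0 CPM in WT prostate, a CPM ratio of 30.3 for 12Q over WT (95% interval 5.15 to 1224, edgeR adjusted p = 0.0289) and of 13.9 without WT replicate 2. Lce1d and Lce1g lost the call without any 1 of the 6 libraries, Lce1f without any but WT replicate 1, and Lce3f without either 48Q library (edgeR adjusted p = 0.051 and 0.0517). Lce1b, with 0.037 and 0.402 CPM in 12Q, 0.0903 and 0.371 CPM in 48Q and 0 in WT, did not pass in any comparison.

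The remaining 14 late envelope genes, Lce1a2, Lce1c, Lce1e, Lce1h, Lce1i, Lce1j, Lce1k, Lce1l, Lce1m, Lce3a, Lce3b, Lce3c, Lce3d and Lce3e, were below the filter, with at most 26 counts in a library. They held 95 counts in 12Q tumors, 161 in 48Q tumors and 0 in WT prostate. Lce3a and Lce3b, with 2 and 0 counts and 1 and 0 counts in the 12Q libraries, had 7 and 18 and 9 and 22 counts in the 48Q libraries, whereas Lce1m had 3 and 26 counts in 12Q and 0 and 6 in 48Q. Members of the Lce1 and Lce3 families share sequence, up to 49.3% of the 50-base stretches of Lce3d, so single genes are less certain than the sum. WT libraries at 0 counts limit the level to under 0.156 CPM per gene.

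**Figure D2:**
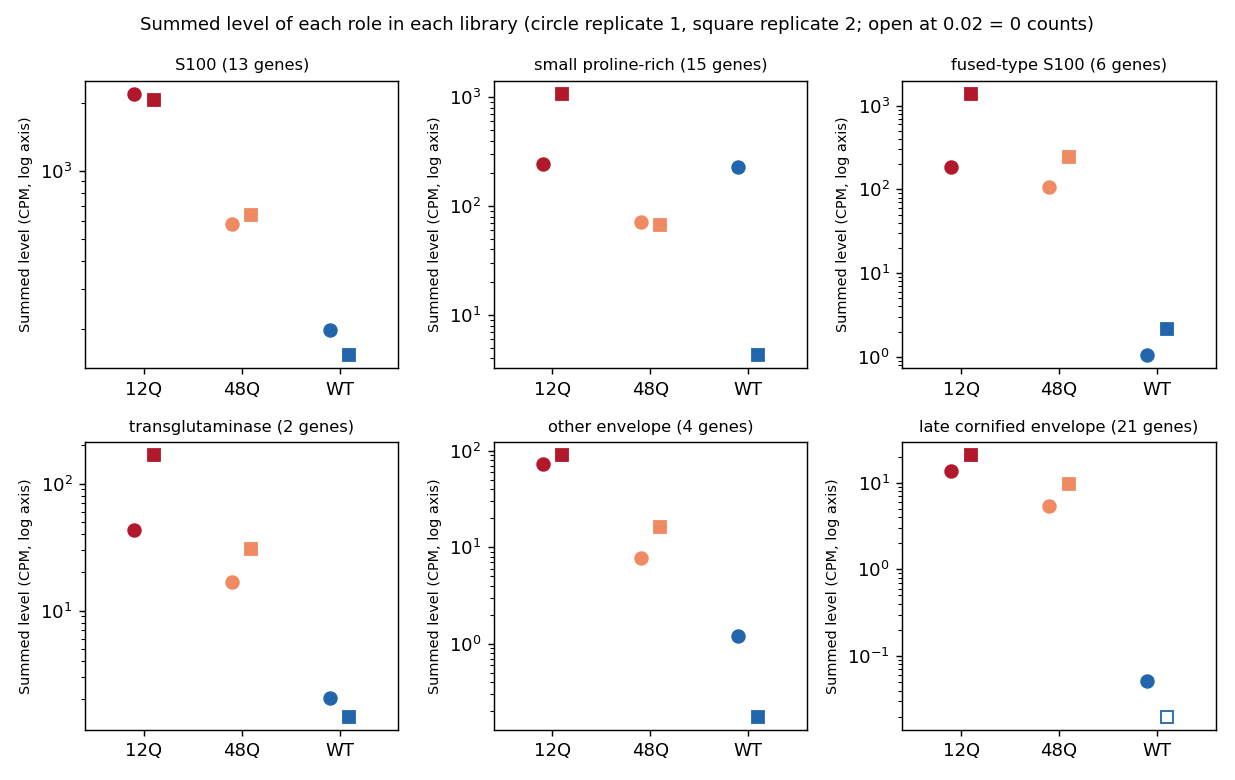
Summed level of each role in each library, in CPM on a log axis, with the 12Q libraries left, 48Q in the middle and WT right (circles, replicate 1 and squares, replicate 2). The WT libraries lie below all tumor libraries in every panel but that of the small proline-rich genes, where WT replicate 1 is at 226 CPM through Sprr1a.

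The fused-type S100 proteins, which bundle keratin filaments in the granular layer and in the hair follicle, included the gene that was called lower in 12Q than in 48Q tumors. Of 5 tested, 3 were higher in 12Q tumors and 3 in 48Q tumors than in WT prostate. Tchh encodes trichohyalin, a keratin-binding protein of the inner root sheath and medulla of the hair follicle. It had 168 and 1185 CPM in 12Q tumors, 74.2 and 146 CPM in 48Q tumors and 0.991 and 2.12 CPM in WT prostate. All 4 tumor libraries were above WT, and 12Q replicate 2 stood far above the other 3. edgeR gave a log2 fold change of 8.75 for 12Q over WT (SE 1.22, edgeR adjusted p = 0.00804) and 6.13 for 48Q over WT (SE 1.10, edgeR adjusted p = 0.037), and 2.62 for 12Q over 48Q (SE 0.91, edgeR adjusted p = 0.14). Without 12Q replicate 2 the 12Q value was 6.74, without 12Q replicate 1 it was 9.61 and without WT replicate 2 it was 9.40.

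Rptn, the repetin gene, had 9.14 and 191 CPM in 12Q tumors, 25.2 and 86.4 CPM in 48Q tumors and 0 in both WT libraries. The tumor groups overlapped, since the lowest and the highest value were both in 12Q. It was at least 693-fold higher in 12Q tumors than in WT prostate (edgeR adjusted p = 0.0272), with a bound of 1324 without 12Q replicate 1 and 63.2 without 12Q replicate 2, and with an adjusted p of 0.0944 and 0.0954 without WT replicate 1 and replicate 2. For 48Q the bound was 386-fold, which did not pass (edgeR adjusted p = 0.0652). Tchhl1, a trichohyalin-like gene, had 7.03 and 1.18 CPM in 12Q tumors, 0.903 and 1.63 CPM in 48Q tumors and 0 in WT prostate. It was at least 28.4-fold higher in 12Q (edgeR adjusted p = 0.0222, 0.0671 without WT replicate 1 and 0.0701 without WT replicate 2), with a bound of 8.14 without 12Q replicate 1 and 48.6 without 12Q replicate 2, and did not pass in 48Q (at least 8.75-fold, edgeR adjusted p = 0.0746). Exons of Rptn overlap those of Gm37857 on the same strand, so its counts are uncertain to that extent.

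Hrnr and Crnn were at their highest in 48Q tumors. Hrnr encodes hornerin, a filaggrin-like protein of the granular layer. It had 0 and 0.0309 CPM in 12Q tumors, 4.94 and 7.13 CPM in 48Q tumors and 0.0521 and 0.0442 CPM in WT prostate, which stand for 0 and 1, 164 and 250, and 1 and 1 counts. Hrnr was thus near zero in 12Q tumors and in WT prostate alike, and 48Q was apart from both. The CPM ratio of 48Q over WT was 127 (95% interval 34.9 to 1050, edgeR adjusted p = 0.0182), and that of 12Q over 48Q was 0.00278 (95% interval 7.02e-05 to 0.0156), with a log2 fold change of -8.16 (SE 0.931, edgeR adjusted p = 0.0205). The last ratio was 0.0051 without 12Q replicate 1, and without 12Q replicate 2 the remaining 12Q library held 0 counts. The adjusted p between the tumors was 0.0518 to 0.0816 without any 1 tumor library. Crnn, the cornulin gene, had 0.296 and 0.248 CPM in 12Q tumors, 1.14 and 3.14 CPM in 48Q tumors and 0 in WT prostate. The groups did not overlap, and it was at least 14.8-fold higher in 48Q than in WT (edgeR adjusted p = 0.0375, bound 7.91 without 48Q replicate 2). For 12Q over WT (at least 1.88-fold, edgeR adjusted p = 0.0537) and for 12Q over 48Q (log2 fold change -2.96, SE 0.812, edgeR adjusted p = 0.103) it did not pass. Flg2 had 0 counts in 12Q tumors, 3 in each 48Q tumor and 0 in WT prostate.

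Both transglutaminases, the enzymes that join the envelope proteins, were higher in 12Q tumors than in WT prostate, and Tgm3 was higher in 48Q tumors. Tgm3, the enzyme of the upper epidermis and hair follicle that acts on trichohyalin and small proline-rich proteins, had 38.6 and 148 CPM in 12Q tumors, 8.64 and 24.0 CPM in 48Q tumors and 0 and 0.133 CPM in WT prostate. The groups were in the order 12Q, 48Q, WT with no overlap. The CPM ratio to WT, which had 3 counts in all, was 1369 for 12Q (95% interval 468 to 6643, edgeR adjusted p = 0.00618) and 230 for 48Q (95% interval 78.6 to 1119, edgeR adjusted p = 0.03). Without 12Q replicate 1 the 12Q ratio was 2065 and without 12Q replicate 2 it was 538, while it was 741 without WT replicate 1 and at least 597 without WT replicate 2. The 48Q ratio was 120 without 48Q replicate 2, 125 without WT replicate 1 and at least 104 without WT replicate 2.

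Tgm1, the membrane-bound keratinocyte enzyme, was already detected in WT prostate. It had 4.81 and 18.6 CPM in 12Q tumors, 8.04 and 6.56 CPM in 48Q tumors and 2.03 and 1.33 CPM in WT prostate. The tumor groups overlapped, and both were above WT. Its log2 fold change of 2.80 for 12Q over WT (SE 0.718, edgeR adjusted p = 0.038) was 1.52 without 12Q replicate 2 (edgeR adjusted p = 0.107) and 3.52 without 12Q replicate 1, and the call was also lost without either 48Q or either WT library (edgeR adjusted p = 0.0682 to 0.14). For 48Q over WT it was 2.12 (SE 0.703, edgeR adjusted p = 0.13). Exons of Tgm1 overlap those of Gm49067 on the opposite strand.

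The single S100 genes were the best detected of the complex in WT prostate, beside Sprr1a, and most were higher in tumors. Summed over 13 genes they came to 2195 and 2077 CPM in 12Q tumors, 583 and 639 CPM in 48Q tumors and 196 and 152 CPM in WT prostate. Of 11 tested, 10 were higher in 12Q and 5 in 48Q tumors than in WT prostate, and 2 were higher in 12Q than in 48Q tumors. S100a6, or calcyclin, had 1410 and 1194 CPM in 12Q tumors, 303 and 356 CPM in 48Q tumors and 63.6 and 73.3 CPM in WT prostate. The 3 groups did not overlap, and the libraries within each were close. On the log2 scale the difference was 4.25 for 12Q over WT (SE 0.323, edgeR adjusted p = 0.0027), 2.27 for 48Q over WT (SE 0.296, edgeR adjusted p = 0.0191) and 1.98 for 12Q over 48Q (SE 0.293, edgeR adjusted p = 0.0279, 0.0544 to 0.293 without any 1 tumor library). Per kilobase of exon it was at 1819 CPM in 12Q tumors, rank 10 of all genes, at 460 CPM and rank 39 in 48Q tumors, and at 95.6 CPM and rank 550 in WT prostate.

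S100a10, the partner of annexin A2 in a membrane complex, had 258 and 244 CPM in 12Q tumors, 63.8 and 69.9 CPM in 48Q tumors and 44.4 and 24.8 CPM in WT prostate. The 12Q libraries stood apart, whereas 48Q libraries were close to the higher WT library. The fitted log2 fold change was 2.86 for 12Q over WT (SE 0.329, edgeR adjusted p = 0.00509) and 1.91 for 12Q over 48Q (SE 0.317, edgeR adjusted p = 0.0354, 0.0798 to 0.238 without any 1 tumor library), and 0.95 for 48Q over WT (SE 0.31, edgeR adjusted p = 0.126). S100a11 had 146 and 157 CPM in 12Q tumors, 57.1 and 42.2 CPM in 48Q tumors and 19.0 and 8.66 CPM in WT prostate, a log2 fold change of 3.46 for 12Q over WT (SE 0.424, edgeR adjusted p = 0.0058, 4.14 without WT replicate 1) and of 1.84 for 48Q over WT that did not pass (SE 0.399, edgeR adjusted p = 0.0538). S100a16 had 135 and 131 CPM in 12Q tumors, 42.4 and 43.1 CPM in 48Q tumors and 37.2 and 18.1 CPM in WT prostate, 2.27 for 12Q over WT on the log2 scale (SE 0.361, edgeR adjusted p = 0.0107, 2.88 without WT replicate 1) and 0.63 for 48Q over WT (SE 0.347, edgeR adjusted p = 0.31). In these 3 genes every 12Q library was above every 48Q library. S100a11 shares 41.1% of its 50-base stretches with Gm12854.

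S100a14 and S100a1 were higher in both tumors. S100a14, which is known from epithelial cells, had 81.5 and 200 CPM in 12Q tumors, 35.1 and 43.5 CPM in 48Q tumors and 2.45 and 1.06 CPM in WT prostate. No groups overlapped, and WT prostate was more than an order of magnitude below either tumor. In log2 terms it was 6.33 for 12Q over WT (SE 0.651, edgeR adjusted p = 0.00416) and 4.49 for 48Q over WT (SE 0.604, edgeR adjusted p = 0.0203), and 7.05 and 5.20 without WT replicate 1. Without 12Q replicate 2 the 12Q value was 5.55. S100a1, known best from heart muscle, had 133 and 106 CPM in 12Q tumors, 63.7 and 66.5 CPM in 48Q tumors and 19.6 and 14.2 CPM in WT prostate, with log2 fold changes of 2.82 (SE 0.267, edgeR adjusted p = 0.00353) and 1.95 (SE 0.259, edgeR adjusted p = 0.0196). S100a13 had 19.9 and 11.1 CPM in 12Q tumors, 7.31 and 5.27 CPM in 48Q tumors and 3.34 and 3.27 CPM in WT prostate, and was higher in 12Q than in WT (log2 fold change 2.23, SE 0.448, edgeR adjusted p = 0.0199, 0.064 without WT replicate 1 and 0.0648 without WT replicate 2).

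S100a8 and S100a9 encode calprotectin, which keratinocytes make under stress and which neutrophils store in quantity. S100a8 had 3.37 and 4.15 CPM in 12Q tumors, 2.05 and 2.51 CPM in 48Q tumors and 0 in both WT libraries, at least 26-fold higher in 12Q (edgeR adjusted p = 0.00634) and at least 15.8-fold higher in 48Q than in WT (edgeR adjusted p = 0.022). S100a9 had 3.85 and 24.4 CPM in 12Q tumors, 3.43 and 4.73 CPM in 48Q tumors and 0.104 and 0 CPM in WT prostate. The tumor groups overlapped for S100a9, with 12Q replicate 2 far above the rest. Its CPM ratio was 314 for 12Q over WT (95% interval 86.7 to 2598, edgeR adjusted p = 0.0136), and 80.4 without 12Q replicate 2, 510 without 12Q replicate 1, at least 106 without WT replicate 1 and 144 without WT replicate 2, where the adjusted p was 0.0625. In 48Q against WT the ratio of 85.7 (95% interval 23.5 to 711) did not pass (edgeR adjusted p = 0.0556).

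Neutrophil markers were given beside calprotectin. Among 12 listed genes Camp was at 0 in all libraries, and Ngp, Elane and Mpo were at most at 0.0903 CPM. The 11 genes other than Ltf summed to 5.14 and 34.0 CPM in 12Q tumors, 22 and 17 CPM in 48Q tumors and 2.82 and 6.23 CPM in WT prostate. As for S100a9, 12Q replicate 2 was highest, with Mmp9 at 12.6 CPM and Il1b at 10.9 CPM in it. The order of other libraries differed. For the marker sum 12Q replicate 1 was below both 48Q libraries, while S100a9 was at 3.85 CPM there and at 3.43 CPM in 48Q replicate 1. Of 6 tested, 3 were higher in 12Q tumors (Ltf, Csf3r and Mmp8) and 2 in 48Q tumors (Ltf and Csf3r) than in WT prostate. These are 50% and 33.3% of the tested neutrophil genes, beside 22.4% and 5.18% of all tested genes called in either direction. Ltf, which glandular epithelium also secretes, had 710 and 2907 CPM in 12Q tumors, 72.3 and 49.0 CPM in 48Q tumors and 0.313 and 0.619 CPM in WT prostate. Their part in the calprotectin values was not tested.

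S100a3, a protein of the hair cuticle, had 1.26 and 1.36 CPM in 12Q tumors, 0.662 and 0.684 CPM in 48Q tumors, and 0.0521 and 0.0442 CPM in WT prostate, 1 count in each. The CPM ratio was 27.5 for 12Q over WT (95% interval 7.35 to 231, edgeR adjusted p = 0.0112) and 14.1 for 48Q over WT (95% interval 3.68 to 120, edgeR adjusted p = 0.0484). S100a4, a gene of fibroblasts and leukocytes, was the one S100 gene whose tumor libraries were below WT, with 2.37 and 3.16 CPM in 12Q tumors, 4.42 and 5.10 CPM in 48Q tumors and 6.67 and 8.89 CPM in WT prostate. The groups were separate, but the log2 fold change of -1.49 for 12Q over WT did not pass (SE 0.434, edgeR adjusted p = 0.0541), nor did -0.71 for 48Q over WT (SE 0.425, edgeR adjusted p = 0.346). Exons of S100a3 and S100a4 overlap Gm42674 on the same strand. S100a2 and S100a5 had 5 counts in 12Q tumors, 3 in 48Q tumors and 1 in WT prostate together.

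Set directly against each other, the tumors differed in few single genes. Over all 61 genes, 38 had the higher mean in 12Q tumors, and both 12Q libraries were above both 48Q libraries for 29 and below for 13. Of the 35 tested genes 29 had the higher mean in 12Q tumors, with a median log2 fold change of 1.61 of 12Q over 48Q, beside 0.00 for all tested genes. Among the tested genes both 12Q libraries were above both 48Q libraries for 24 and below for 5, beside 31.3% and 35.5% of all tested genes. The 5 were Hrnr, Crnn, Sprr2b, Sprr1b and S100a4, and the 6 that overlapped were Rptn, Tchhl1, Tgm1, S100a9, Lce1b and Lce1d. At an unadjusted p under 0.05, edgeR put 18 higher and 4 lower. The share of all tested genes at that threshold was not computed, so these counts cannot be set against a general rate. Against WT, both 12Q libraries were above both WT libraries for 31 tested genes and below for 2 (30.1% and 30.4% of all tested genes), and both 48Q libraries were above for 33 and below for 1 (34.7% and 29.8%).

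**Figure D3:**
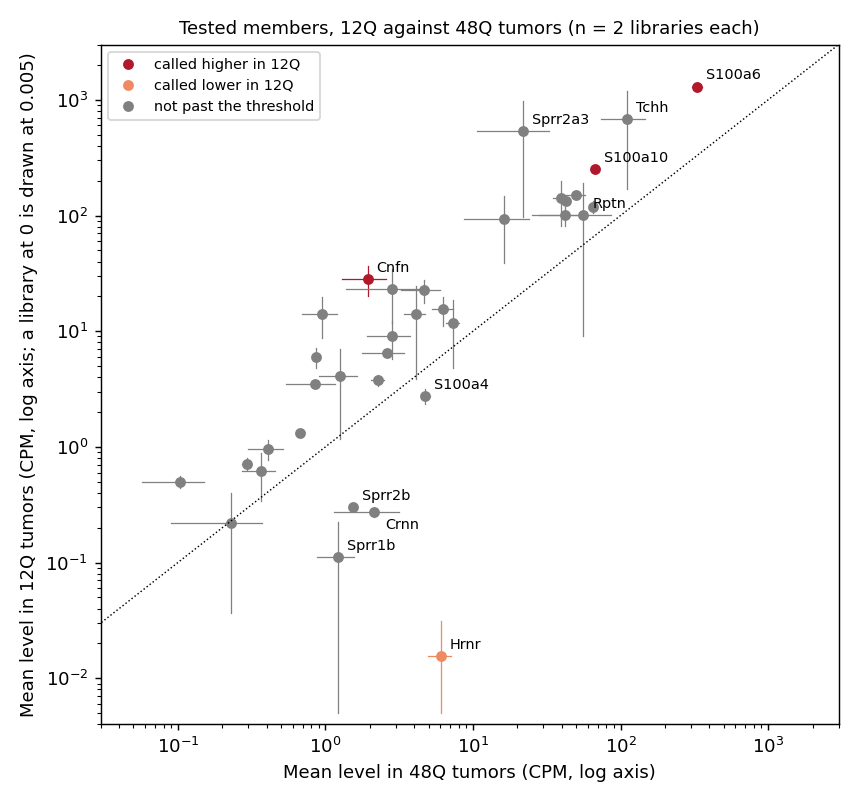
Mean level of each tested gene in 12Q tumors (vertical) against 48Q tumors (horizontal), in CPM on log axes, with bars that join the 2 libraries of a group and a dotted line of equal level. Most points lie above the line, Cnfn, S100a6 and S100a10 were called higher in 12Q, and Hrnr, called lower, lies far below it, with Crnn, Sprr2b and Sprr1b on the same side.

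In each tumor group a larger share of these genes than of all tested genes differed over 3-fold between the 2 libraries. The median of the higher over the lower value was 1.489 against 1.41 in 12Q tumors and 1.705 against 1.125 in 48Q tumors. In WT prostate the share over 3-fold was smaller, at 6.67% against 13.1%. The genes were not matched for level. In 12Q tumors 8 of the 33 tested genes detected in both libraries had a higher value over 3 times the lower (24.2%), against 11.6% of all genes, and in 48Q tumors 4 of 35 (11.4%), against 1.95%. In 48Q tumors replicate 2 was above replicate 1 for 30 of 35 genes (85.7%, against 49.6% of all genes), and in 12Q tumors for 20 of 35 (57.1%, against 49.4%). In 12Q tumors the wide genes, Tchh, Rptn, Sprr2a3, Tgm3, S100a9, Tgm1 and Lce1b, were all higher in replicate 2, and Tchhl1 was higher in replicate 1. All 61 genes together took 0.282% and 0.543% of counts in 12Q tumors, 0.0959% and 0.125% in 48Q tumors and 0.0302% and 0.013% in WT prostate. The 48 genes other than the single S100 genes summed to 559 and 2721 CPM in 12Q tumors, 208 and 367 CPM in 48Q tumors and 230 and 8.09 CPM in WT prostate. In CPM, WT replicate 1 was thus above 48Q replicate 1, through Sprr1a at 225 CPM. As percent of counts these 2 libraries were at 0.0163% and 0.0252%.

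A list of 40 genes outside the complex, of which 37 were tested, was taken for cornification. It also holds S100pbp and Ager, which are related to S100 proteins and are not cornification genes as such. In 12Q tumors 21 were higher and 3 lower than in WT prostate and 13 did not pass. That is 64.9% called, beside 22.4% of all tested genes in either direction. In 48Q tumors 4 were higher, 0 lower and 33 not past (10.8% called, beside 5.18%). Between the tumors 4 were higher in 12Q, 1 lower and 32 not past (13.5% called, beside 4.17%). The median log2 fold change was 3.12 for 12Q over WT, 2.07 for 48Q over WT and 1.20 for 12Q over 48Q. Over all tested genes the medians were -0.01, 0.02 and 0.00. Anxa1, a membrane-binding protein found in the envelope, had 286 and 394 CPM in 12Q tumors, 139 and 112 CPM in 48Q tumors and 28.5 and 29.4 CPM in WT prostate, with log2 fold changes of 3.55 for 12Q over WT (SE 0.283, edgeR adjusted p = 0.00274), 2.12 for 48Q over WT (SE 0.267, edgeR adjusted p = 0.0182) and 1.44 for 12Q over 48Q (SE 0.26, edgeR adjusted p = 0.0407). Elovl4, which makes the very long acyl chains of the skin barrier lipids, had 58.1 and 98.0 CPM in 12Q tumors, 3.28 and 10.8 CPM in 48Q tumors and 0.261 and 0.354 CPM in WT prostate. Its log2 fold change was 7.96 for 12Q over WT (SE 0.805, edgeR adjusted p = 0.00407), 4.49 for 48Q over WT (SE 0.733, edgeR adjusted p = 0.0305) and 3.47 for 12Q over 48Q (SE 0.616, edgeR adjusted p = 0.0396). In both genes the 3 groups were separate and in the same order.

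Grhl3, a grainyhead-like transcription factor of the epidermal barrier, had 6.73 and 6.81 CPM in 12Q tumors, 0.873 and 1.28 CPM in 48Q tumors and 0 in WT prostate, at least 46.8-fold (edgeR adjusted p = 0.00519) and 7.46-fold (edgeR adjusted p = 0.0282) above WT. Sbsn, the suprabasin gene, had 132 and 214 CPM in 12Q tumors, 15.7 and 25.3 CPM in 48Q tumors and 3.39 and 8.89 CPM in WT prostate (log2 fold change 4.81, SE 0.581, edgeR adjusted p = 0.00572 for 12Q over WT, and 3.08, SE 0.532, edgeR adjusted p = 0.038 for 12Q over 48Q). Cers3, a ceramide synthase of the skin barrier, had 70.9 and 61.9 CPM in 12Q tumors, 18.9 and 19.7 CPM in 48Q tumors and 8.24 and 15.9 CPM in WT prostate (2.46, SE 0.362, edgeR adjusted p = 0.00875 for 12Q over WT, and 1.78, SE 0.352, edgeR adjusted p = 0.0488 for 12Q over 48Q). These 3 genes had their highest levels in the 12Q libraries. Anxa2, the partner of S100a10, had 917 and 906 CPM in 12Q tumors, 345 and 332 CPM in 48Q tumors and 123 and 58.7 CPM in WT prostate (3.32, SE 0.423, edgeR adjusted p = 0.00634 for 12Q over WT). Evpl, the envoplakin gene, was higher in both tumors than in WT prostate. It had 18.0 and 14.3 CPM in 12Q tumors, 15.2 and 14.7 CPM in 48Q tumors and 4.28 and 5.61 CPM in WT prostate. The log2 fold change was 1.71 for 12Q over WT (SE 0.333, edgeR adjusted p = 0.0184) and 1.59 for 48Q over WT (SE 0.332, edgeR adjusted p = 0.05 after rounding). Between the tumors it did not pass (0.11, SE 0.321, edgeR adjusted p = 0.842).

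Krt1, a keratin of the suprabasal epidermis, was the listed gene called lower in 12Q than in 48Q tumors, while 25 of the 37 had a positive log2 fold change of 12Q over 48Q. It had 0.037 and 0.0928 CPM in 12Q tumors, 3.91 and 4.65 CPM in 48Q tumors and 1.1 and 0.884 CPM in WT prostate, a log2 fold change of -5.92 for 12Q over 48Q (SE 0.719, edgeR adjusted p = 0.0229) and of -3.81 for 12Q over WT (SE 0.698, edgeR adjusted p = 0.0156). As with Hrnr, 48Q was highest and 12Q near zero, but Krt1 was detected in WT prostate, where Hrnr was near zero. For 48Q over WT, Krt1 did not pass (log2 fold change 2.11, SE 0.569, edgeR adjusted p = 0.0837). Of the 37 genes 29 had a positive log2 fold change of 12Q over WT. The other genes called lower in 12Q tumors than in WT prostate, named after their values were seen, were Aloxe3, a barrier lipoxygenase, at -3.49 (SE 0.588, edgeR adjusted p = 0.0122), and S100pbp at -1 (SE 0.264, edgeR adjusted p = 0.0417). The counts of this list depended on single libraries: for 12Q over WT they were 13 without WT replicate 2, 14 without WT replicate 1 or 12Q replicate 2, and 27 without 12Q replicate 1. For 48Q over WT they were 0 without 48Q replicate 2 or either WT library, 1 without 48Q replicate 1, and 14 and 10 without 12Q replicate 1 and 12Q replicate 2. Between the tumors they were 0 without either 12Q library or 48Q replicate 1 and 1 without 48Q replicate 2.

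On chromosome 3 the 58 genes lie in chr3:90511034-93564645 of mm10, a stretch of 3054 kb, with a gap of 1385 kb between S100a9 and Lor and with shorter ones of 132.7 kb between Lor and Sprr2a1 and 125.7 kb between Lce1m and Crnn. Another 12 genes in the table lie among them. Chosen after their values were seen, these give 5 tested genes. In 12Q tumors 4 were higher than in WT prostate (Prr9, S100a7a, Kprp and Pglyrp3), beside 11.2% of all tested genes. In 48Q tumors 2 were higher than in WT prostate (Prr9 and Kprp), beside 3.95%, and 0 were called between the tumors. Prr9, a proline-rich protein gene next to Lor, had 2951 and 3018 CPM in 12Q tumors, 118 and 429 CPM in 48Q tumors and 6.15 and 1.24 CPM in WT prostate. Per kilobase of exon its mean level in 12Q tumors, 2527 CPM, was above the 1819 CPM of S100a6. Its log2 fold change was 9.67 for 12Q over WT (SE 1.20, edgeR adjusted p = 0.00605) and 6.22 for 48Q over WT (SE 1.04, edgeR adjusted p = 0.0323). Kprp, the keratinocyte proline-rich protein, had 3.62 and 8.66 CPM in 12Q tumors, 2.02 and 2.42 CPM in 48Q tumors and 0 in WT prostate, at least 42.5-fold (edgeR adjusted p = 0.00773) and 15.4-fold (edgeR adjusted p = 0.0299) above WT. Of the 20 genes that flank the stretch, 10 on each side, 11 were tested. On the S100a10 side only Them4 and Them5 had enough counts, so that side was hardly measured. Of the 11, 0 were called in 12Q tumors against WT, beside 22.4% of all tested genes. In 48Q tumors against WT 1 was called, Them5 (edgeR adjusted p = 0.0499), beside 5.18%.

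**Figure D4:**
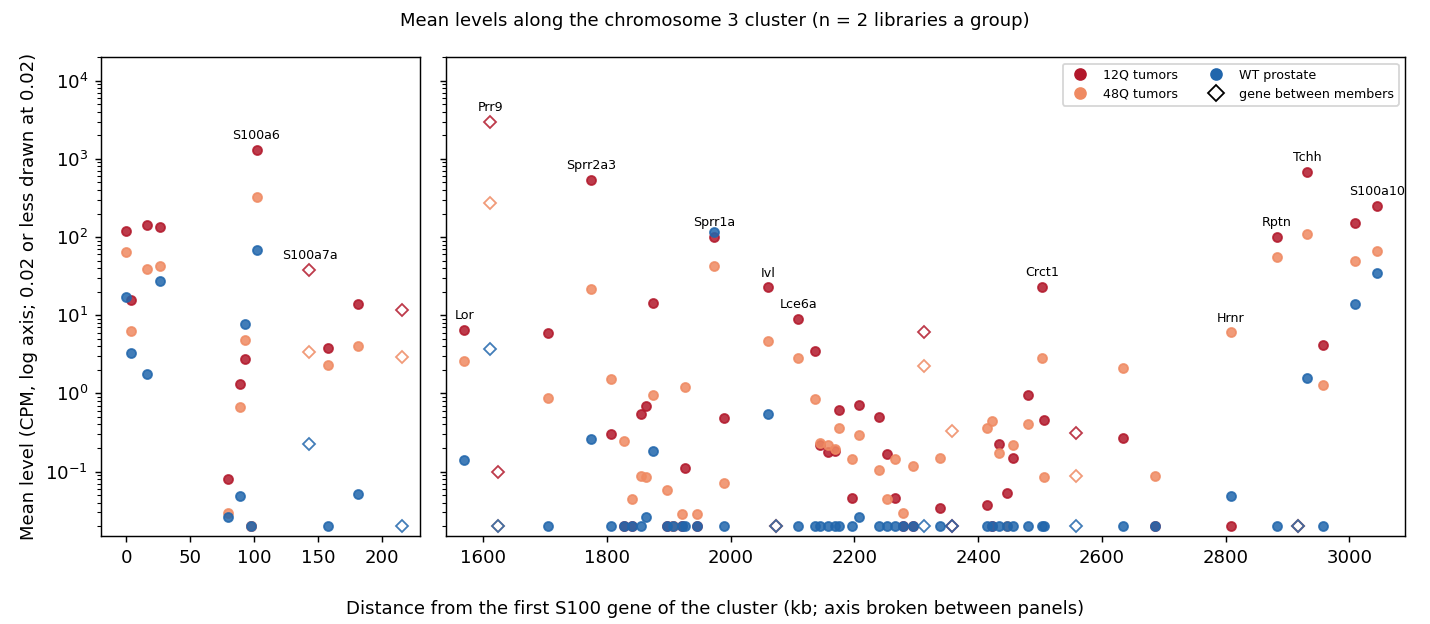
Mean level of each gene along the chromosome 3 stretch, in CPM on a log axis, against distance in kb from its first S100 gene, with the axis broken at the longest gap (12Q dark red, 48Q orange, WT blue; diamonds, the 12 other genes). Blue points lie at the bottom of the plot for most genes outside the S100 block, and Prr9 and S100a6 are the highest red points.

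Levels of other cell types were read from marker lists. Basal epithelium, the layer that normally gives rise to stratified cells, varied by gene. Trp63 had 0.037 and 0.186 CPM in 12Q tumors, 29.6 and 24.2 CPM in 48Q tumors and 33.9 and 42.9 CPM in WT prostate, and Krt5 had 0.074 and 0.433, 65.2 and 79.5, and 30.2 and 72.1 CPM in the same groups. Itgb4, in contrast, had 119 and 175 CPM in 12Q tumors, 72.4 and 70.1 CPM in 48Q tumors and 23.4 and 39.6 CPM in WT prostate, and Itga6 had 542 and 749, 597 and 696, and 640 and 372 CPM. Of 7 basal genes 5 were lower and 1 higher in 12Q tumors than in WT prostate (85.7% called, beside 22.4% of all tested genes). In 48Q tumors 0 were called (beside 5.18%), and 4 were lower in 12Q than in 48Q tumors (57.1% called, beside 4.17%). Prostate markers were read in the same way. Pbsn, the probasin gene, had 3.33 and 5.14 CPM in 12Q tumors, 3953 and 2247 CPM in 48Q tumors and 28206 and 16139 CPM in WT prostate. The other 8 luminal genes of the list summed to 5003 and 4154 CPM in 12Q tumors, 2209 and 2299 CPM in 48Q tumors and 6199 and 4729 CPM in WT prostate. Of the 8 tested luminal genes 2 were called lower in 12Q (25%, beside 22.4% of all genes called in either direction) and 1 in 48Q tumors (12.5%, beside 5.18%) than in WT prostate.

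Hair follicle markers were mixed. Among 8 genes of the inner root sheath and medulla, 6 were tested, of which 3 were higher in 12Q tumors (Krt27, Krt73 and Dsg4) and 2 in 48Q tumors (Krt27 and Krt73) than in WT prostate. These are 50% and 33.3% of the tested genes, beside 22.4% and 5.18% of all tested genes called in either direction. Krt73 had 35.8 and 156 CPM in 12Q tumors, 10.1 and 16.6 CPM in 48Q tumors and 0.0521 and 0.0884 CPM in WT prostate, with 12Q replicate 2 above replicate 1. Krt71 was the reverse, with 5.22 and 0.0619 CPM in 12Q tumors, 0.271 and 0.2 CPM in 48Q tumors and 0 in WT prostate, and Gata3 had 949 and 571 CPM in 12Q tumors, 305 and 420 CPM in 48Q tumors and 982 and 921 CPM in WT prostate. Of the matrix and cortex genes 4 were tested and Lef1 was called in each tumor (25%, beside 22.4% of all genes in 12Q and 5.18% in 48Q), while Foxn1, Hoxc13, Krt33b and Krt85 were at most at 0.361 CPM in any library. The other 3 tested genes of that list did not pass: Msx2 had 0.962 and 28.2 CPM in 12Q tumors, 12.2 and 13.4 CPM in 48Q tumors and 0.0521 and 0.663 CPM in WT prostate, and Krt35 and Krt31 had at most 0.217 CPM in 12Q tumors, 0.933 to 2.14 CPM in 48Q tumors and at most 0.0521 CPM in WT prostate. Of 8 macrophage genes 6 were higher in 12Q tumors and 6 in 48Q tumors than in WT prostate, and 1 was lower in 12Q. Of 6 urothelial genes 1 was higher in each tumor and 1 lower in 12Q, of 6 fibroblast genes 3 were lower in 12Q and 0 were called in 48Q, of 5 smooth muscle genes 5 were lower in 12Q and 2 in 48Q, and of 4 seminal vesicle genes 1 was higher in 12Q and 2 in 48Q tumors than in WT prostate. Called shares in 12Q tumors were 87.5% for macrophage, 33.3% for urothelial, 50% for fibroblast, 100% for smooth muscle and 25% for seminal vesicle genes, beside 22.4% of all genes. In 48Q tumors they were 75%, 16.7%, 0%, 40% and 50%, beside 5.18%. In lists this small, a share such as 25% is near the general rate in 12Q tumors. Smooth muscle summed to 39.7 and 32.5 CPM in 12Q tumors, 809 and 284 CPM in 48Q tumors and 2187 and 5555 CPM in WT prostate, and urothelial genes to 904 and 140 CPM, 119 and 134 CPM, and 270 and 268 CPM in those groups. The part of tissue make-up in the values of the complex was not tested.

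Ctnnb1, the gene altered in both tumors, had 958 and 1034 CPM in 12Q tumors, 1081 and 957 CPM in 48Q tumors and 669 and 569 CPM in WT prostate. The log2 fold change was 0.69 for 12Q over WT (SE 0.304, edgeR adjusted p = 0.15) and 0.72 for 48Q over WT (SE 0.304, edgeR adjusted p = 0.208). Counts per gene cannot show whether exon 3 was lost. Its exons overlap those of Ulk4 and Mir7090.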

How the data were processed

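The authors deposited 1 table of whole-number counts of reads per gene for all 6 libraries, without normalization, and groups and replicate numbers come from the labels. The submitters' processing notes name TopHat2 2.0.14, HTSeq 0.6.0 and the mm10 build. Which annotation was counted, whether strand was used and what became of multi-mapping reads is not given in the sources used here, so genes with overlapping exons or shared sequence are uncertain. Per the labels' protocols, total RNA was extracted from fresh tissue with RNA-Bee, and the Kapa RNA HyperPrep kit was used for the libraries. Every column of the table matched a sample.

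Genes were filtered with filterByExpr (minimum count 10, minimum total 15), which kept 15050 genes, scaled by TMM and tested with edgeR 4.0.16 in R 4.3.3 by the quasi-likelihood F test in 1 fit of the 3 groups (3 residual degrees of freedom, common dispersion 0.143). P-values were adjusted over all tested genes by Benjamini and Hochberg's method at 0.05. The approximate SE is the size of the log2 fold change over the square root of F. The procedure was tested on simulated data. Alternatives were DESeq2 size factors, library totals, no filter, DESeq2 1.42.0, a fit of the 2 groups compared, the replicate number as a block, and each library left out, where a lone library is assumed to vary like the other groups.

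The genes, lists and tests were chosen with earlier results of these data known. The rule for genes named with values in every library took those called in at least 1 comparison, and of the cornification list up to 6 per comparison, those called with the smallest adjusted p. The remaining 4 tested genes, Sprr1a, Sprr1b, S100a4 and Lce1b, were added to it. Exon overlap and shared 50-base stretches come from GENCODE M21, and promoters from RefSeq on GRCm38.p6.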

Additional observations from a re-analysis of the deposited data

How the results depend on the processing

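For 12Q over WT, 29 genes of the complex were called, and between 19 and 25 with 1 library left out, 30 with library totals, 31 with DESeq2 and 23 in a fit of the 2 groups. Of the 29 calls, 17 were kept under all 12 alternatives. For 48Q over WT, 16 were called, 25 with library totals, 25 with DESeq2 and 0 to 17 with 1 library left out. For 12Q over 48Q, 4 were called, 15 with DESeq2, 8 in a fit of the 2 groups and 0 to 8 with 1 library left out. Of the 16 and the 4 calls, 0 were kept under every alternative, and 0 calls of any comparison reversed.

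The cornification list gave 24 calls for 12Q over WT and 13 to 27 with 1 library left out. For 48Q over WT it gave 4 calls, 12 with library totals, 9 with no filter, 20 with DESeq2, 11 in a fit of the 2 groups and 0 to 14 with 1 library left out. For 12Q over 48Q it gave 5 calls, 1 with library totals, 13 with DESeq2 and 0 to 5 with 1 library left out.

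Deviations from group means of same-numbered libraries correlated at 0.0339 between 12Q and 48Q, 0.148 between 12Q and WT and -0.0946 between 48Q and WT. With 2 libraries a group, these values cannot decide whether same-numbered libraries share anything beyond a number. With the replicate number as a block, the members called were 24 for 12Q over WT, 18 for 48Q over WT and 7 for 12Q over 48Q, and the cornification genes called were 22, 11 and 4.

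Library totals in place of TMM moved the all-gene median log2 fold change to 0.485 for 12Q over WT, 0.71 for 48Q over WT and -0.185 for 12Q over 48Q. With them 3265 genes were higher and 1032 lower for 12Q over WT, against 1687 and 1683 with TMM, and 1918 higher and 83 lower for 48Q over WT, against 595 and 185, and 62 higher and 379 lower for 12Q over 48Q, against 152 and 475. Genes at 0 counts in WT prostate are limited to under 0.156 CPM by depth, and 26 of the 61 genes had too few counts for a test. The causes of these differences between settings were not tested.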
